A study of Homo sapiens with 16 samples.

Results

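The regions described here were open in young cortical progenitors and not listed as open in older ones. They were found by merging the peaks of 16 ATAC-seq libraries on chromosomes 1 to 22 and X wherever peaks overlapped by at least 1 base. A merged region was kept when it had a peak in all 4 progenitor libraries of days 40 and 60 and in none of the 4 progenitor libraries of days 90 and 120. The rule took 1582 of 321056 merged regions, or 0.493%, and 2.42% of the 65394 regions that had a peak in all 4 early progenitor libraries. The regions were thus chosen by the presence of peaks in progenitors, so progenitor values are descriptions, and the neuron libraries are the measurements that the rule did not use. ATAC-seq marks open chromatin, the DNA that the transposase Tn5 can reach. The cells were grown from the established embryonic stem cell line H9 as brain organoids enriched for dorsal telencephalon, the source of the cerebral cortex. Every group came from the same reporter line, labelled wild type: 1 SOX2 allele carried P2A-EGFP in place of its stop codon, and dTomato under the human SYN1 promoter sat at the AAVS1 site. EGFP-positive cells are called progenitors and dTomato-positive cells neurons, sorted at days 40, 60, 90 and 120, with 2 libraries for each of the 8 groups. Nothing in the labels tells if both libraries of a group stem from different cultures. The p-values of the fits thus measure the spread between the 2 libraries of a group only, which may be technical.

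Cortical progenitors begin as a neuroepithelium and become radial glia, which first make deep-layer neurons, then upper-layer neurons and at last glia. As they age they silence early factors such as the RNA-binding proteins LIN28B and IGF2BP2 and lose the WNT and BMP signals of the cortical hem, the midline source that patterns the young cortex. Distal enhancers open and close along this path, and a neuron can carry over accessible sites from the progenitor that made it.

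A few of the regions overlapped annotated microRNAs or promoters, and these are the sequences that could be read for them. The sequences printed here were picked after the values were seen, all from RefSeq on GRCh38, whose coordinates are those of hg38. They begin with the miR-302 and miR-367 cluster, microRNAs known for their high level in pluripotent stem cells. A region at chr4:112646932-112648031, inside LARP7, covered the hairpin of miR-367 and part of the hairpin of miR-302d, on the minus strand. The hairpins of miR-302a, miR-302c and miR-302b lay 152, 332 and 454 bases beyond its end. Its peaks covered 463 and 568 bases in the day 40 progenitor libraries and 320 and 551 bases at day 60. Among neurons it had a peak in 1 library, day 40 replicate 1, with 1042 bases. Capitals mark the seed, bases 2 to 8, which pairs with target RNAs. The 4 miR-302 3p arms shared the seed AAGUGCU, and miR-367-3p had another.
hsa-miR-367-3p: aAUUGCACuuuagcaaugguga
hsa-miR-302d-3p: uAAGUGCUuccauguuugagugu
hsa-miR-302a-3p: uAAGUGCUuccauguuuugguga
hsa-miR-302c-3p: uAAGUGCUuccauguuucagugg
hsa-miR-302b-3p: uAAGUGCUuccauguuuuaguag

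Another region inside the teneurin gene TENM4, at chr11:79420407-79422179, reached the hairpin of miR-5579, whose 3p arm is shown next with the seed in capitals. In all, 3 of 1549 RefSeq hairpins overlapped an early-only region, while 335 overlapped some merged region.
hsa-miR-5579-3p: uUAGCUUAaggaguaccagauc

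Few of the regions touched a promoter. Of 34961 windows from 250 bases before to 50 bases after a RefSeq gene start, 26 overlapped an early-only region, 13 of them at protein-coding genes, and 22411 overlapped some merged region. The 26 windows had a median GC content of 53.2% and a median of 6 CpG sites in 300 bases, against 58.7% and 14 over the 35116 windows of the whole table. For 4 promoters, picked after the values were seen, the 250 bases before the start are printed. The regions at FGF23, a hormone gene of phosphate balance, and MYH2, a muscle myosin gene, were among the 5 strongest at gene starts. Those at SLFN12, a Schlafen family gene, and GCM2, a parathyroid transcription factor gene, overlapped most of the bases printed. Other promoters, such as those of IGFL4 and KRTAP3-1, were overlapped wholly and are not printed. On the minus strand lay FGF23 at chr12:4379713-4379962, MYH2 at chr17:10549659-10549908, SLFN12 at chr17:35433175-35433424 and GCM2 at chr6:10882042-10882291. The regions covered 129, 131, 230 and 250 of these bases in the same order. Capitals mark matches on either strand to 8 motifs: AACAAT (SOX), TAATTA (homeodomain), CAGCTG (E-box), TTCAAAG (LEF/TCF), GGAATG (TEAD), ATGCAAAT (octamer), TGANTCA (AP-1) and the palindromic NFI motif.
FGF23: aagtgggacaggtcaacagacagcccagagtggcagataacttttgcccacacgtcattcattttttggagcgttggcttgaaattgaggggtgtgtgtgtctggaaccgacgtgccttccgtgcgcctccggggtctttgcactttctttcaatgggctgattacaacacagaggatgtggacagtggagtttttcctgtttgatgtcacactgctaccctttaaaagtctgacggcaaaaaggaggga
MYH2: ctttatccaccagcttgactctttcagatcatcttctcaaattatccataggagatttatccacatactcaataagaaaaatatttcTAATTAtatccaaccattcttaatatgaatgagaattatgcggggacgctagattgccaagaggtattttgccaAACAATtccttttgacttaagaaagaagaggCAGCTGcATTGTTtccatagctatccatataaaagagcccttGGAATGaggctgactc
SLFN12: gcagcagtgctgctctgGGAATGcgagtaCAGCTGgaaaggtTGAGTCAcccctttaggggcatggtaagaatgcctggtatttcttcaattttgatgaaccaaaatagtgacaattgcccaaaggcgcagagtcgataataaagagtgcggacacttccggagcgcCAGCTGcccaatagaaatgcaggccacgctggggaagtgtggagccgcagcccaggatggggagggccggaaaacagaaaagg
GCM2: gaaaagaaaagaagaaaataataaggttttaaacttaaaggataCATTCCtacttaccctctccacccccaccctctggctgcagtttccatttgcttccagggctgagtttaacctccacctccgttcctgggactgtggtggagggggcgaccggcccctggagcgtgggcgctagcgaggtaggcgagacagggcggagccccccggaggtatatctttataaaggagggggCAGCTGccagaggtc

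In these windows of 300 bases, GGAATG was found in 7 of 26 (26.9%), against 14.0% of all promoters. CAGCTG stood in 5 (19.2%, against 17.9%) and TAATTA in 3 (11.5%, against 4.84%). The other motifs were rarer: TTCAAAG in 2 (7.69%, against 4.43%), AACAAT in 1 (3.85%, against 10.1%) and TGANTCA in 1 (3.85%, against 7.71%). ATGCAAAT and the NFI motif were not found, against 1.77% and 0.0285% of all promoters. A match is a description of letters, not of a bound factor, and with 26 windows the shares rest on few promoters.

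In the progenitors that chose them, the regions were mostly modest peaks. Strength was measured as the percentile of a peak's −log10 q-value within its own list, the authors' value, averaged over the 4 early progenitor libraries. The median over the 1582 regions was 38.5 (range 4.77 to 92.2), where the middle of any list is 50. Only 15 regions reached 75, 384 reached 50, and 310 lay under 25. The 1708 regions with the mirror pattern, open in all late and no early progenitor libraries, had a median of 45.8. By percentile, regions were stronger in day 40 than in day 60 progenitors, with medians of 44.8 and 31.2. The median covered length was 522.5 and 345.75 bases, and 1149 regions (72.6%) ranked higher at day 40. The fold enrichment over background, also the authors' value, did not share this direction, with medians of 3.20 and 3.26. Only 683 regions (43.2%) had a higher mean fold at day 40.

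Just outside the rule lay more regions than inside it. A peak in all 4 early and exactly 1 late progenitor library was found for 2462 regions, and 1508 of these had it in day 90 replicate 2, 727 in day 90 replicate 1, 196 in day 120 replicate 1 and 31 in day 120 replicate 2. Their median strength in early progenitors was 42.4, and their single late peak had a median percentile of 20.6. A further 3068 regions had 3 early peaks and no late peak, with a median strength of 29.2, and 1310 of them missed day 60 replicate 1. When every list was cut to the covered length of the shortest, by rank of −log10 q, the same rule gave 894 regions, of which only 6 of the 1582 remained. Requiring peaks to cover at least 50% of a region gave 830, and 290 of the 1582 remained. Whether a single region belongs to the set thus depends on the amount called in each library and on the overlap that is asked.

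The regions lay mostly away from gene starts. Their median width was 809 bases (247 to 3430), against 652 over all merged regions. A protein-coding gene start lay within 1 kb of 34 of them (2.15%), against 5.15% of all merged regions and 0.644% of the late-only regions. The median distance to a start was 74.8 kb, against 63.1 kb for all and 103 kb for the late-only regions. Inside a protein-coding gene lay 794 (50.2%), against 52.9% of all merged regions; the gene table holds no exons, so exon and intron were not told apart. They were scattered, with a median of 505 kb to the nearest other early-only region, and 60 lay within 20 kb of one. Near a region open in all 8 progenitor libraries, within 5 kb, lay 249 (15.7%), and 31 lay within 20 kb of a late-only region. Over the chromosomes the share of merged regions in the set went from 0.399% on chromosome 8 to 0.666% on chromosome 20, while late-only regions were sparsest on chromosomes 22 (0.114%) and 19 (0.139%).

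Fewer of these sites had a peak in older neurons than in neurons of day 40, where their share was close to that of all merged regions. In neuron libraries of day 40, 560 regions had a peak in replicate 1 and 560 in replicate 2, or 35.4% in each, against 42.3% and 36.2% of all merged regions, and 431 had it in both. By day 60 the replicates had 264 (16.7%) and 132 (8.34%), by day 90 the numbers stood at 175 (11.1%) and 203 (12.8%), and the day 120 libraries held 83 (5.25%) and 105 (6.64%). The share was thus highest in both day 40 libraries and lowest in both day 120 libraries, while the day 60 and day 90 libraries overlapped. The mean was 24.0% ± 13.6 in early and 8.94% ± 3.59 in late neurons (SD, n = 4 each), and with day 60 as the only early stage it was 12.5%, still above the late mean but within the spread of the late libraries.

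The amount called in neurons also differed by day, with mean covered lengths of 101, 69.1, 80.2 and 59.3 Mb from day 40 to day 120. Over all 321056 merged regions the share with a peak was 42.3% and 36.2% in the day 40 libraries, then 35.2% and 24.3% on day 60, 33.6% and 33.6% on day 90, ending at 27.9% and 28.5% on day 120. Relative to these, the mean share of early-only regions went from 0.901 on day 40 over 0.421 and 0.355 to 0.211 on day 120. The late-only regions of progenitors went the other way, at 35.0% and 23.8%, 31.0% and 21.6%, 48.4% and 40.1%, and 58.4% and 48.5% from day 40 to day 120, or 0.748, 0.884, 1.32 and 1.896 times the share of all regions. In lists of equal covered length the set built anew had means of 20.8% in early and 10.9% in late neurons, against 29.6% and 33.4% of all regions. All merged regions include those built from neuron peaks alone. With regions merged from the progenitor lists alone, the set had means of 23.6% in early and 8.32% in late neurons. The shares of all those regions were 37.6% and 34.9%. No test was made of these shares, since the regions of a library are not replicates of a condition.

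**Figure D1:**
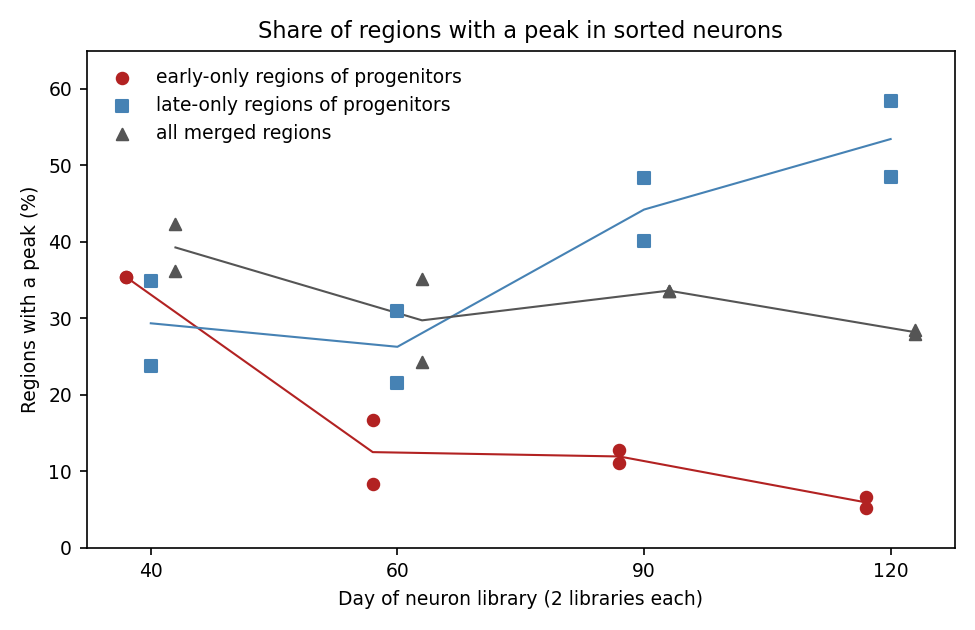
Share of regions with a peak (y axis, percent) in each neuron library by day (x axis), for early-only regions of progenitors (red circles), late-only regions (blue squares) and all merged regions (grey triangles); points are libraries, 2 per day, and lines join their means. The early-only share goes from 35.4% in both day 40 libraries to 5.25% and 6.64% at day 120, while the late-only share goes up to 58.4% and 48.5%.

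Most of the regions were never called in neurons. No neuron library had a peak at 813 (51.4%), against 26.1% of all merged regions and 27.2% of the late-only regions. A peak in at least 1 was found at 769. All merged regions include those with peaks in neurons alone, which cannot lack a neuron peak. Their shares are thus not those of regions that need a progenitor peak, here and in the comparisons that follow. Peaks in early but no late neuron libraries were found at 463 (29.3%), against 26.0% of all merged regions, a share near the background. The reverse, late but no early neuron libraries, held for 33 (2.09%), against 13.1%. Both day 40 libraries and no other had a peak at 191 (12.1%), against 7.05% of all merged regions. The full early pattern, a peak in all 4 early and no late neuron library, was found at 9 regions (0.569%), against 0.267%, and the full late pattern at 1 (0.0632%), against 1.24%. All 8 neuron libraries had a peak at 23 (1.45%), against 12.0%. The count of 9 depended on single libraries: it was 41 without neuron day 60 replicate 2 (2.59%, against 1.19% of all), 18 without day 60 replicate 1, 21 without day 90 replicate 2 and 14 without day 90 replicate 1.

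**Figure D2:**
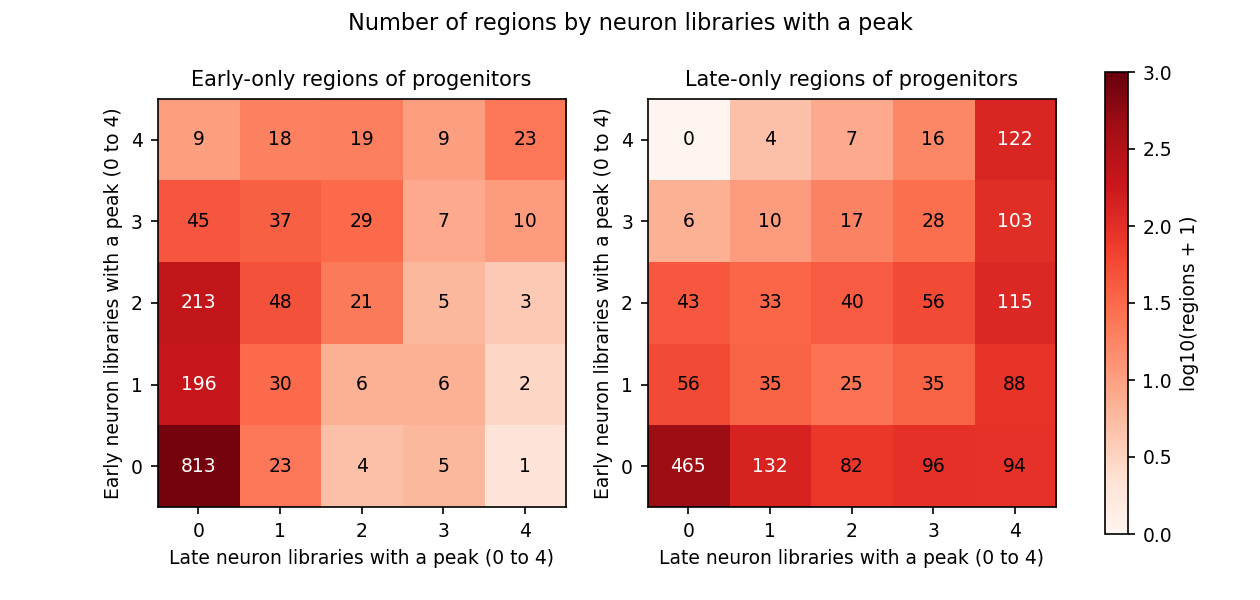
Number of regions by how many of the 4 early (y axis) and 4 late (x axis) neuron libraries had a peak, for early-only regions (left) and late-only regions (right) of progenitors, coloured by log10 of the number plus 1. Of the early-only regions 813 have none and 23 have all 8, and more lie in the left columns than in the right; 465 late-only regions have none and 122 have all 8.

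Where neurons had a peak at these regions, it was ranked lower with age. The median percentile of such peaks was 42.3 and 42.7 in the day 40 neuron libraries, 34.4 and 34.5 on day 60, 27.0 and 25.2 on day 90, with 22.4 and 27.9 for day 120. Each early library lay above each late one. At late-only regions the medians were 46.1 and 36.6 on day 40, 54.2 and 54.0 on day 60, then 54.2 and 55.9, and on day 120 they were 62.7 and 64.6, so the same libraries ranked those sites higher with age. The covered length of the early-only regions fell in parallel, from 365 and 399 kb in the day 40 neuron libraries, over 146 and 60.6 kb on day 60 and 84.2 and 103 kb on day 90, to 36.1 and 38.7 kb on day 120. Strong progenitor peaks were not the ones shared most with neurons. Of the 396 weakest regions, 43.4% had a peak in day 40 neurons (mean of the libraries), and of the 396 strongest 30.7%. The weakest were also wider, with a median of 881 bases against 772, and the part of width in this difference was not tested. The median width was 959 bases for regions with a neuron peak and 710 for those without. A neuron peak can widen the merged region, and the part of merging in this difference was not tested.

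**Figure D3:**
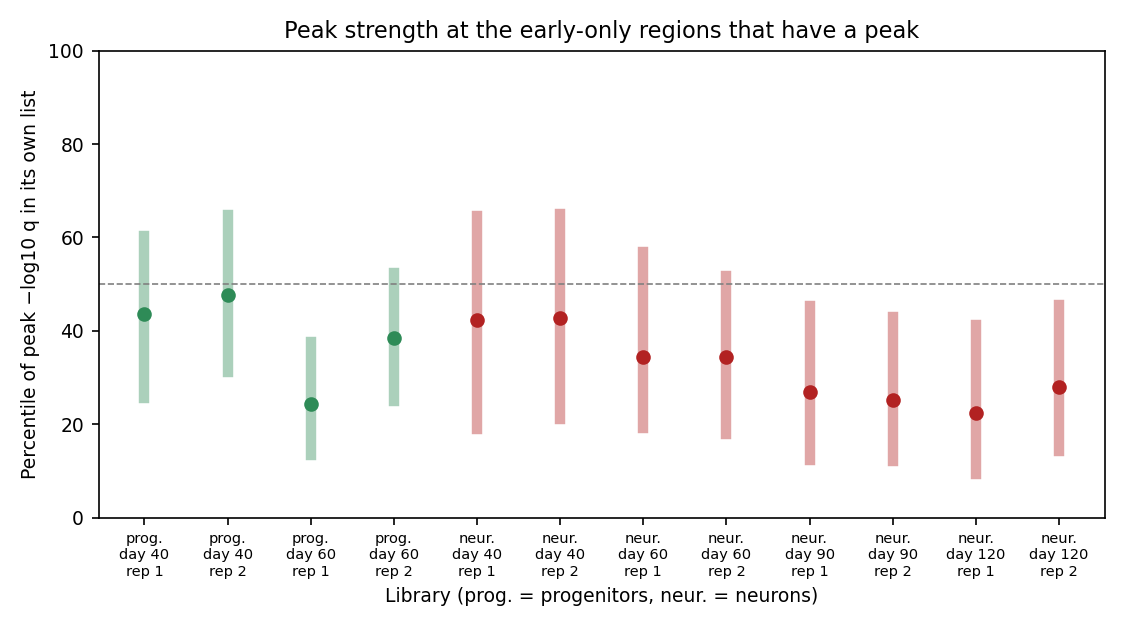
Percentile of the −log10 q of the peak within its own list (y axis, 0 to 100) at the early-only regions that had a peak, by library (x axis); points are medians, thick bars the middle 50% of regions, green progenitors, red neurons, and the dashed line the middle of a list. Neuron medians go from 42.3 and 42.7 at day 40 to 22.4 and 27.9 at day 120.

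Of the 10 strongest regions some had no neuron peak at all, and 1 had a peak in every neuron library. Names here are those of the host gene or of the nearest gene start, which need not be the target. The highest strength, 92.2, was that of a narrow region of 275 bases at chr4:128225225-128225499, 62314 bases from the start of PGRMC2, a haem-binding membrane protein gene. It covered 275, 235, 219 and 225 bases in early progenitors, and in neurons it had 211 and 208 bases at day 60, 184 and 227 on day 90 but none on day 40 or 120. The third, at chr4:150494960-150496060 in LRBA and 86091 bases from the eye and brain gene MAB21L2, covered 379 and 957 bases in day 40 neurons and none later. Next came a region 40373 bases from CHST1, a sulfotransferase gene, at chr11:45606352-45607316. Its peaks covered 565 and 763 bases in day 40 neurons, 588 and 691 on day 60, 789 and 677 on day 90, then 232 and 220, so every neuron library kept it.

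Another 6 of the 10 strongest were nearly empty in neurons. Inside NR4A1, an immediate-early nuclear receptor gene, a region at chr12:52029760-52030057 had a peak in 1 neuron library, day 40 replicate 2. No neuron library had a peak in the regions inside the neurexin gene NRXN3 (chr14:79804291-79804827), the vesicle release gene CADPS (chr3:62643701-62644360) or the Mediator subunit gene MED14 (chrX:40707498-40708784). The same held 272588 bases from the ephrin receptor gene EPHA5 (chr4:65943077-65943482) and 491268 bases from LOC124903229 (chr13:87130220-87130753). Among regions within 1 kb of a gene start, the 5 strongest were at FGF23, the olfactory receptor gene OR5A1, KAZALD1, the chromogranin gene CHGB and MYH2. In neurons, FGF23 and CHGB had no peak, OR5A1 had 1 of 356 bases at day 40, MYH2 had 461 and 654 bases at day 40 only, and KAZALD1 had 391 and 510 bases at day 40 and 316 in 1 day 90 library.

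The 9 regions with the full early pattern had peaks in neurons of the same days as in progenitors. The strongest lay 294285 bases from LRIG3, at chr12:59214789-59216089, and covered 862 and 664 bases in day 40 neurons, 258 and 262 bases at day 60 and none later. A region 25064 bases from SKIDA1 covered 564, 687, 375 and 448 bases in the 4 early neuron libraries. Inside PRKAR1B and 57413 bases from the growth factor gene PDGFA, the values were 564, 249, 244 and 428 bases. One 371143 bases from RBM26 had 828, 1004, 305 and 251 bases, and one inside TBPL1 had 739, 1139, 718 and 423 bases. The single region with the full late pattern lay inside MGST2, 36232 bases from its start, at chr4:139702051-139703126. It had 695, 228, 273 and 204 bases in late neurons. The strongest of the 23 regions with a peak in all 8 neuron libraries were the one near CHST1 and those near the chemokine gene CCL16, near VSTM2B, inside the phosphate transporter gene SLC20A2 and near the phosphatase gene PTPN5. The 5 widest regions, of 2699 to 3430 bases, lay 434449 bases from DSC3, in PDE4DIP, in GRIP1, in TENM3 and in EFNA5. The widest, near DSC3, had a peak in 7 of 8 neuron libraries, with 1272 to 2414 bases, and none in day 40 replicate 2.

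Protein-coding genes with an early-only region inside or within 20 kb numbered 1073 of 19974 (5.37%) and together took 977 of the 1582 regions. They were long genes, with a median of 99.9 kb against 24.2 kb over all protein-coding genes, and a long gene holds more of any scattered set. Most had 1 region, 110 had at least 2 and 20 at least 3. The genes with the most were the splicing regulator gene RBFOX1 and the nuclease gene SND1 with 5 each, and AUTS2, a neurodevelopment gene, the GABA receptor gene GABRG3 and the zinc finger gene TSHZ2 with 4 each. Of 223 genes on 19 lists of cell types and pathways, 23 (10.3%) held a region. The counts of each list given below stand against the 5.37% of all protein-coding genes.

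Among early progenitor factors, 2 of 12 genes held a region. LIN28B, which blocks the maturation of let-7 microRNAs, had one inside it at chr6:104953000-104954074. In progenitors it covered 992 and 1021 bases at day 40 and 438 and 228 bases at day 60, and in neurons 625 and 1046 bases at day 40, none in 5 later libraries and 279 bases in day 120 replicate 2. IGF2BP2, an RNA-binding protein gene, had one at chr3:185758807-185759694, with a peak of 440 bases in 1 neuron library of day 40. Of the 8 pluripotency genes, DPPA4 and its neighbour DPPA2 shared 1 region, 620 bases from the DPPA4 start at chr3:109336398-109336926, with 383, 397, 198 and 429 bases in early progenitors and none in neurons.

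Signals of the young midline were represented by 3 of 14 genes of the WNT, BMP and hem list. Beside MSX2, a BMP-induced homeobox gene, lay the strongest region of any list, ranked 18 of 1582, at chr5:174720689-174721761. Its peaks covered 258, 230, 208 and 650 bases in early progenitors, and 259, 1073 and 392 bases in 3 early neuron libraries and 164 bases in 1 late one. The region inside WNT5A, a ligand of noncanonical WNT signalling (chr3:55473927-55474626), had the full early pattern, with 628, 471, 266 and 262 bases in early neurons. LEF1, a transcription factor through which beta-catenin acts, held a region at chr4:108149803-108150528 with 726 and 677 bases in day 40 progenitors, 311 and 156 bases at day 60 and none in neurons. Of the lists for other regions and signals, PAX3 and MITF (2 of 18, posterior and eye genes) and FGF18 and the retinoic acid receptor gene RARB (2 of 17) held regions. Those at PAX3, MITF and RARB, which held 2, had no neuron peak, and that of FGF18 had 433 bases in each day 40 neuron library and none later.

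Radial glia, gliogenic and other later classes also held regions, at 1 of 20 radial glia and 2 of 10 gliogenic genes, against 5.37% of all protein-coding genes. SOX2, the progenitor factor that also carries the reporter, was 1 of 20 radial glia genes. Its region, 5154 bases from the gene start at chr3:181717079-181718244, covered 565 and 548 bases in day 40 progenitors, 1166 and 1073 bases at day 60 and none in neurons, so it was wider at day 60, the reverse of the set's median. FAM107A (1 of 10 outer radial glia genes) and ZBTB20 (gliogenic) held regions with no neuron peak. NFIB, the other of the 2 gliogenic genes among 10, held the only one of the 22 regions shown that had a peak in all 8 neuron libraries, with 334 and 278 bases on day 40, 653 and 452 on day 60, 752 and 1020 on day 90, then 511 and 418 on day 120. GFAP, the astrocyte filament gene (1 of 11), had 339, 398 and 372 bases in 3 early neuron libraries and 243 bases in 1 late one. PPP1R17 (1 of 12 intermediate progenitor genes) had peaks in 1 early and 2 late neuron libraries.

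Neuronal genes were on the list too, although the regions were chosen in progenitors. Of 10 upper-layer genes 4 (40%) held a region, against 5.37% of all protein-coding genes: CUX1, CUX2, UNC5D and MEF2C. These 4 genes spanned 187 to 561 kb, against a median of 24.2 kb over all protein-coding genes. Those named for CUX2 and UNC5D had no neuron peak, while the one 179824 bases from the MEF2C start had 698 and 929 bases at day 40, 368 and 199 at day 60 and 329 in day 90 replicate 2. SOX5, a deep-layer factor, had 235 and 206 bases at day 40 and 437 bases in day 90 replicate 1, and MYT1L, a pan-neuronal factor, had none. No gene of the Notch, choroid plexus, ventral telencephalon, cell cycle, mesenchymal or microglia and endothelium lists held a region. Lists of 6 to 20 genes are short, and these shares were not tested.

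**Figure D4:**
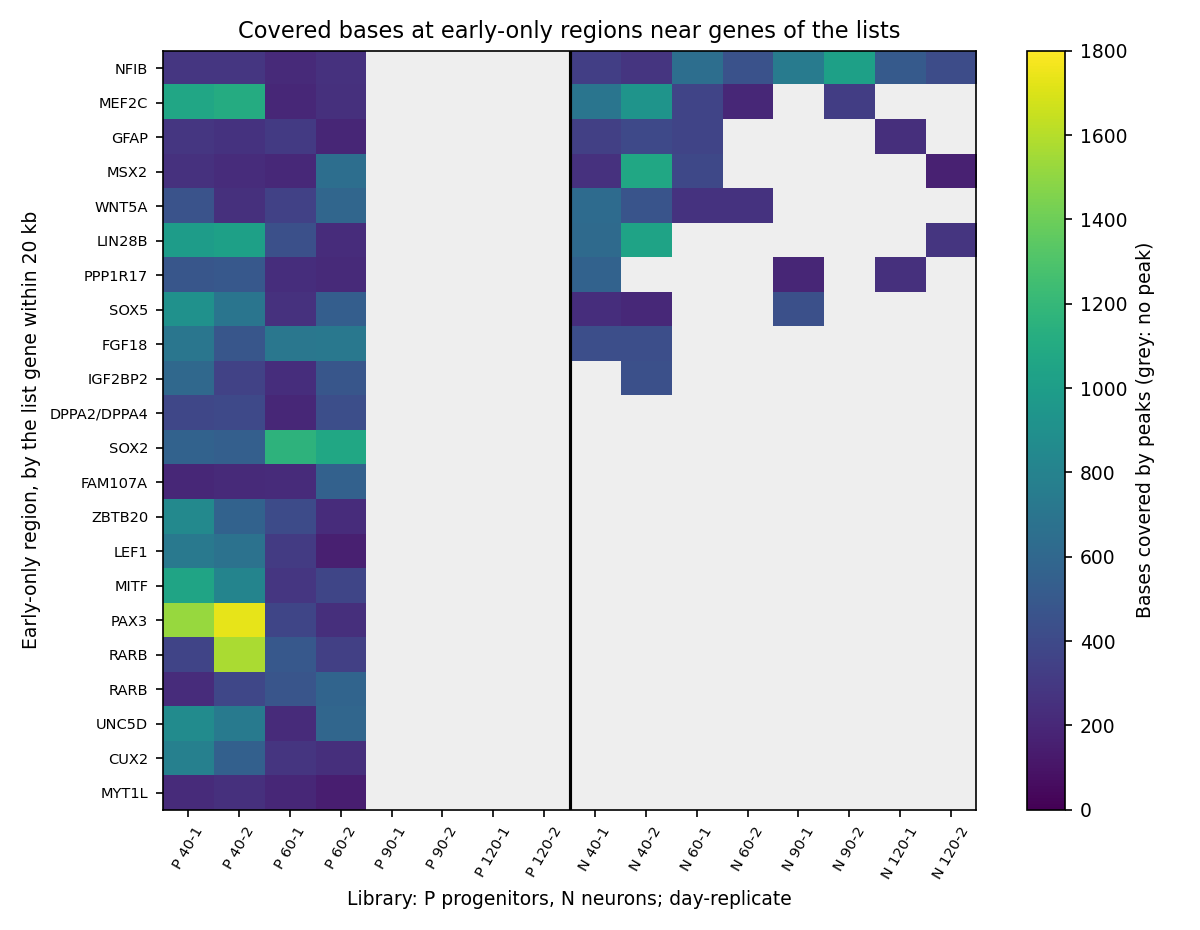
Bases covered by peaks (colour, grey where there was no peak) in the 22 early-only regions named near list genes (rows, up to the 3 strongest per list) by library (columns; P progenitors, N neurons, day and replicate). Of these rows 12 have no neuron peak, 7 have a peak in some late neuron library and only the NFIB row is filled in all 8.

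Also looked at, after the values were seen, were 3 regions near genes of secreted BMP antagonists and of patterning. One 672 bases from NOG, the noggin gene, covered 2367 and 912 bases in day 40 progenitors, 718 and 205 at day 60, and 261 and 217 bases in 2 early neuron libraries. One inside SOSTDC1, 901 bases from its start, had a peak in all 8 neuron libraries, from 152 to 1775 bases. One inside HOXB8, a hindbrain and spinal cord gene, lay 694 bases from its start. It covered 251, 200, 278 and 238 bases in early progenitors, with a peak in 1 early and 1 late neuron library.

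A test of covered bases per region in neurons could reach only part of the set. With a peak in at least 2 of 8 neuron libraries, 550 regions were fitted and 1032 were not. Using limma on log2 of the covered bases plus 100, 255 of the 550 were higher in early neurons (46.4%, against 19.7% of the 160891 regions tested) and 5 were higher late (against 9.37%), at a Benjamini-Hochberg adjusted p below the threshold of 0.05. This count describes the day 40 pair: 253 of the 255 had a peak in both day 40 libraries, and 191 of the 550 entered through those 2 libraries alone, which they could hardly do without differing. Without day 40 replicate 1 the count was 11, without day 40 replicate 2 it was 0 (93 at an unadjusted p under 0.05), and with 2 groups in place of 4 stage means 8. Higher-early calls over all regions fell as well in these settings, with 2 groups to 843 of 160891. Fisher's exact test on presence called 0 by adjusted p, with 9 early and 1 late at an unadjusted p under 0.05. With 4 libraries against 4, that test cannot go below 0.0286 for 1 region.

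Around genes that held the regions, coverage moved both ways in neurons. Covered bases of each gene, with flanks of 20 kb, were scaled to the total of each library and fitted with limma, on log2 of the bases plus 500. Each day had its own mean in the fit, so SE and p come from the spread between the 2 libraries of a day. A difference between days 40 and 60 does not enter them, and a fit with 2 groups was not run for the loci. Of the 1057 genes tested 54 were higher early (5.11%, against 2.28% of the 18404 genes tested) and 50 were higher late (4.73%, against 3.31%), at adjusted p below 0.05. The median difference, late minus early, was 0.00 on the log2 scale, against 0.06 over all genes. Without scaling, which moved the median of all genes from 0.06 to −0.21, the counts were 28 and 0, so the split between early and late calls depended on the scaling. The early count was 21 without neuron day 40 replicate 2, 24 and 32 without day 60 replicate 1 and 2, 29 without day 90 replicate 1 and 17 without day 120 replicate 1. The late count was 30 without day 40 replicate 2, 32 without day 60 replicate 1, 23 and 33 without day 90 replicate 1 and 2, and 16 and 23 without day 120 replicate 1 and 2. In each of these settings the matching count over all genes tested fell as well. The drop was thus not particular to genes that held regions. How far gene length enters these shares was not tested.

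LEF1 was the clearest locus to lose coverage with age. Scaled coverage in neurons was 11.6 and 12.1 kb on day 40, 11.5 and 12.9 kb on day 60, 6.74 and 9.004 kb on day 90, then 2.82 and 4.19 kb on day 120. All early libraries lay above all late ones, with a log2 difference of −1.10 ± 0.15 (SE from the spread within days, n = 4 each, limma adjusted p = 0.00106). RAPGEF5, a Ras family exchange factor gene with 2 early-only regions, had 14.5 and 15.5 kb at day 40 and 2.64 to 6.72 kb in the 6 later libraries (−1.18 ± 0.16, adjusted p = 0.00106). Its fall came mostly between days 40 and 60, and the early and late libraries overlapped. The spindle checkpoint gene MAD1L1 fell by 0.92 and the potassium channel gene KCNQ1 by 0.77, with no overlap of early and late libraries. LOC124904394 fell by 1.42 and was at 0 in both day 120 libraries. IGF2BP2 fell by 0.79 ± 0.14 (adjusted p = 0.00505), from 13.5 to 20.9 kb in early to 5.89 to 13.6 kb in late neurons. LIN28B did not pass, at −0.46 ± 0.14 (adjusted p = 0.0661).

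Other genes that held an early-only region gained coverage in neurons. PLCB4, a phospholipase gene that also had 3 late-only regions, had 9.19, 6.04, 9.31 and 10.8 kb in early neurons and 16.5, 14.6, 19.2 and 20.4 kb in late neurons, a rise of 0.99 ± 0.14 (adjusted p = 0.00157). The growth kinase gene MTOR rose by 0.88 and the protease gene ADAM10 by 1.01, and both had a late-only region as well. ANGPTL7, which lies within MTOR and shares its bases, rose by 1.11, and the photoreceptor channel gene CNGB3 by 0.99, with day 40 neurons (7.94 and 5.73 kb) overlapping the late ones. ZBTB20, a factor of late progenitors and glia, rose by 0.75 ± 0.14 (adjusted p = 0.0068), from 18.8 to 24.4 kb in early to 27.6 to 43.2 kb in late neurons, although its early-only region had no neuron peak. PPP1R17 rose by 0.64 ± 0.18 (adjusted p = 0.0441), a call lost without any 1 of the 8 neuron libraries and turned to −0.04 in lists of equal covered length. SOX2 did not pass, at 0.60 ± 0.21 (adjusted p = 0.108), and passed without neuron day 90 replicate 2 (0.88, adjusted p = 0.00875). In lists of equal covered length LEF1 (−1.67), RAPGEF5 (−1.50), PLCB4 (1.14) and MTOR (0.69) still passed, with adjusted p from 0.0129 to 0.0473. Calls were lost there with a smaller difference at MAD1L1 (−0.18), KCNQ1 (−0.37), IGF2BP2 (−0.42), ADAM10 (0.48) and ZBTB20 (0.70), and with a larger one at CNGB3 (1.29) and ANGPTL7 (1.36), with adjusted p from 0.0654 to 0.798. Without scaling, calls were lost with a larger difference at MAD1L1 (−1.19) and IGF2BP2 (−1.06). They were lost with a smaller difference at PLCB4 (0.72), MTOR (0.62), ADAM10 (0.75), ANGPTL7 (0.85), CNGB3 (0.73), PPP1R17 (0.37) and ZBTB20 (0.49). The adjusted p of these 9 went from 0.0604 to 0.284, and each kept its direction.

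**Figure D5:**
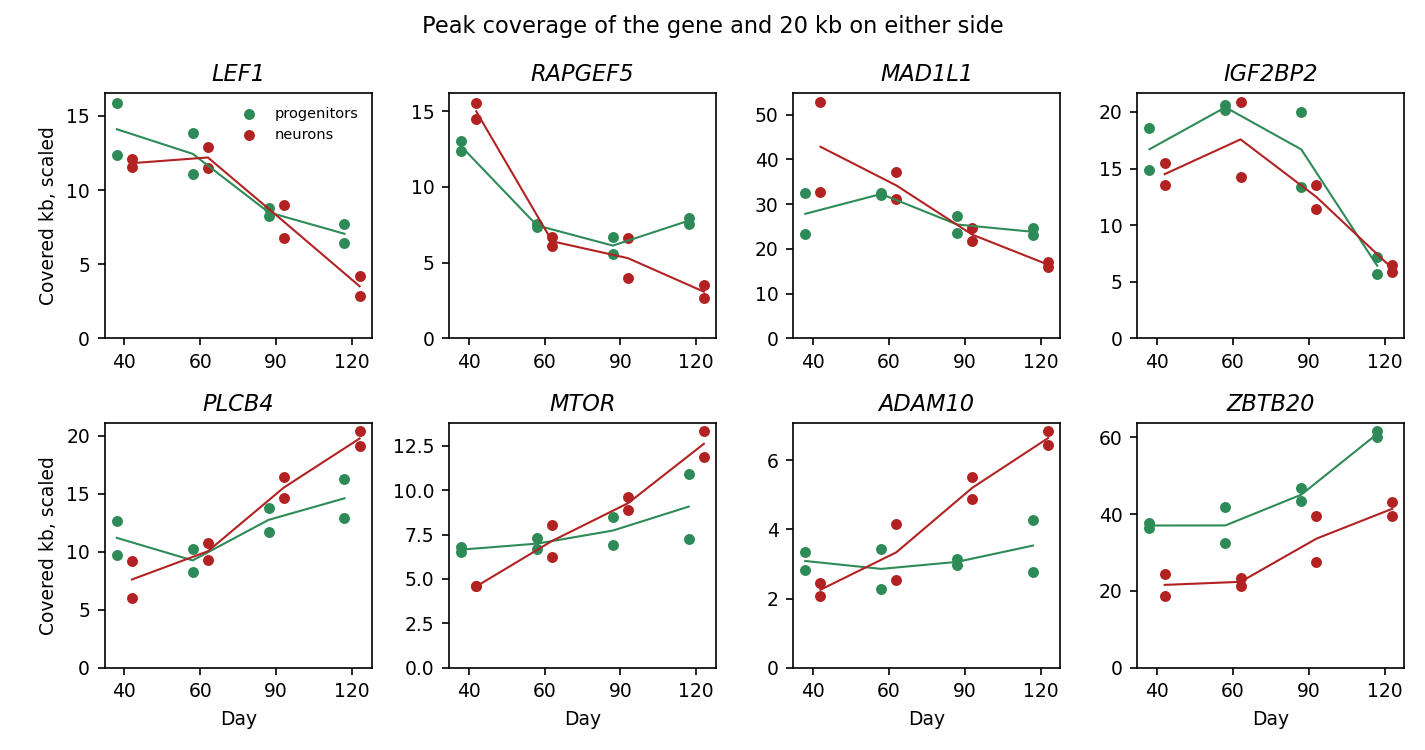
Covered kilobases of 8 genes with 20 kb on either side, scaled to the mean library total (y axes), by day (x axes); points are libraries, lines join their means, green progenitors, red neurons. Neurons fall at LEF1 from 11.5 to 12.9 kb in early to 2.82 to 9.004 kb in late libraries and rise at PLCB4 from 6.04 to 10.8 kb to 14.6 to 20.4 kb.

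Calls over the whole lists in neurons were few, and they stand against 2.28% of all genes tested higher early and 3.31% higher late. The early progenitor list had 2 of 12 genes higher early, IGF2BP2 and PRTG, and the WNT, BMP and hem list 2 of 14, LMX1A and LEF1. RBFOX3 (1 of 14 pan-neuronal genes), KL (1 of 5 choroid plexus genes tested) and PDGFRB (1 of 10 mesenchymal and neural crest genes) were also higher early. Higher late were 3 of 10 outer radial glia genes (PTPRZ1, TNC and PTN) and 2 of 20 radial glia genes (FABP7 and SLC1A3). So were 2 of 10 gliogenic genes (NFIA and ZBTB20) and 2 of the 10 mesenchymal and neural crest genes (COL3A1 and DCN). PPP1R17 (1 of 12 intermediate progenitor genes) and SPRY1 (1 of 17 FGF, retinoic acid and SHH genes) were higher late too. No gene of the pluripotency or posterior and eye lists passed in either direction by limma's adjusted p. The same held for the astroglia, Notch, ventral telencephalon, cell cycle, deep-layer and microglia and endothelium lists.

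Across the series the lists held 68364 to 138554 peaks per library and covered 36.9 to 104 Mb, and they give no read counts, so depth is unknown. The shortest list was that of progenitor day 120 replicate 2, and the day 90 progenitor lists, which the rule asks to be empty, were among the longest, at 103 and 98.8 Mb. Scaled coverage around SOX2 was 9.99 to 16.2 kb in progenitors and 3.66 to 9.71 kb in neurons, and around RBFOX3, a marker of mature neurons, 12.5 to 38.4 kb and 26.5 to 61.6 kb. Summed coverage of the 14 WNT, BMP and hem genes was 72.8 to 109 kb in early and 48.0 to 64.6 kb in late progenitors. The 12 early progenitor genes had 96.0 to 117 kb against 51.4 to 90.6 kb, and the 8 pluripotency genes 13.9 to 18.6 kb against 6.05 to 11.8 kb. For cells of other types, the 6 choroid plexus genes had 12.7 to 23.1 kb in early and 11.7 to 14.8 kb in late progenitors, and the 18 posterior and eye genes 85.4 to 117 kb and 52.7 to 101 kb. The 10 mesenchymal and neural crest genes had 28.2 to 34.4 kb and 16.5 to 29.5 kb, with the collagen gene COL3A1 at 0 in all late progenitor libraries. Of these genes, 1 was higher in early and 1 higher in late progenitors with no overlap of the libraries. In neurons the same WNT, BMP and hem genes had 62.2 to 78.3 kb early and 45.6 to 57.8 kb late, and the choroid plexus genes 11.6 to 17.6 kb and 6.56 to 11.5 kb. The 20 radial glia genes had 130 to 175 kb in early and 178 to 195 kb in late neurons, so that list was not higher in the early neuron libraries. A change in the mix of sorted cells and a change within cells cannot be told apart in bulk libraries, and the part of these markers in the early-only regions was not tested.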

How the data were processed

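ATAC-seq peaks of 16 libraries were used, 2 for each of 4 days in sorted progenitors and neurons. Nuclei were treated with Tn5 for 30 minutes, per the labels' protocols. The submitters' processing notes name MACS2 2.1.2, BWA 0.7.17, SAMtools 1.9, Trim Galore 0.5.0 and Picard, and the build hg38; how the tools were set (duplicates, Tn5 offset, calling) is not given in the sources used here. For every library, the authors deposited 1 broad peak list, with a score, a ratio (the fold enrichment of the peak), a −log10 p-value and a −log10 q-value for each peak. Of these deposited values, the −log10 q ranked or filtered peaks within 1 list and the fold described them; read counts were not used here, so depth is unknown and no intervals are given.

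A library had a region when any peak overlapped it by 1 base. Strength was the mean percentile of the strongest peak's −log10 q over the 4 early progenitor libraries. Gene positions, promoters and microRNAs came from RefSeq tables of GRCh38.p14; all 223 list entries matched, 1 by an older symbol. Strand was known for 15812 of 19974 protein-coding genes; for the others both ends counted as a start. Fits used limma 3.58.1 (R 4.3.3, trended prior) on the 8 neuron libraries with 4 stage means, contrast late (days 90 and 120) minus early (days 40 and 60), Benjamini-Hochberg adjustment over all regions with a peak in at least 2 neuron libraries, or over all genes whose covered bases reached 500 in 2 or more neuron libraries. Overlaps and shares were computed in Python 3.11.15, and the code was tested on simulated data. Named were the 10 strongest regions, the 5 strongest of each neuron pattern and at gene starts, the 5 widest, up to 3 per gene list, the 5 genes with most regions and the 5 genes with the smallest adjusted p in each direction; 1 of the 10 strongest regions and the upper-layer list's calls in neurons are not reported here. The regions, lists and rules were chosen with earlier results of these data known. Alternatives were other overlaps, thresholds, merging, list lengths, pseudocounts, scalings, flanks, a replicate block, and leaving out each library.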

Additional observations from a re-analysis of the deposited data

Results flagged for a closer look

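In 84 groups of 4 libraries examined for a value far from the others, 2 were found, and chance gives about 1 in 20. Among late neurons, day 90 replicate 1 had a peak at 87.2% of the regions open in all 8 progenitor libraries, while the other 3 lay at 77.8% to 79.2%. At the DPPA4 locus, where the early-only region itself had no neuron peak, scaled coverage in late neurons was 0.845 kb in day 90 replicate 2 and 0 in the other 3.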

How the results depend on the processing

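The number of early-only regions depends on the lists: it was 830 with peaks covering at least 50% of a region, 894 in lists of equal covered length, and 1613 to 3090 when 1 progenitor library was left out, with the highest number without day 90 replicate 2, 2892 without day 60 replicate 1 and 2437 without day 60 replicate 2. The mean share with a peak in late neurons was 3.61% at 50% coverage and 7.65% to 12.6% when 1 library was left out, with the highest without progenitor day 90 replicate 1. Its ratio to the early share stayed on the same side, from 1.91 (equal length) to 4.58 (50% coverage) in early over late, and 1.40 with day 60 neurons alone, an alternative chosen after seeing the data. The full early pattern in neurons was found at 4 regions at 50% coverage, 15 with day 60 alone, and 9 to 41 when 1 library was left out.

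Regions higher in early neurons numbered 51 of only 85 tested in lists of equal covered length (255 of 550 with the full lists), 8 with 2 groups, 0 by Fisher's exact test and 0 to 266 when 1 library was left out. Those higher late numbered 11 with scaling to total covered bases, 0 with 2 groups, 0 by Fisher's exact test and 0 to 11 when 1 library was left out; the median of all regions moved from −0.19 to 0.08 with that scaling. Loci higher early numbered 28 without scaling, 24 in lists of equal covered length and 17 to 55 when 1 library was left out. Loci higher late numbered 0 without scaling and 16 to 46 when 1 library was left out. PPP1R17 turned to −0.039 in lists of equal covered length. Over all regions, 7743 of 60681 were higher early in lists of equal covered length, and 843 of 160891 with 2 groups. Over all genes, 281 of 16958 were higher early in lists of equal covered length. Without scaling, 273 of 18404 were higher early and 38 higher late. The cause of these moves was not tested.

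Replicate numbers did not pair the libraries: differences between replicates correlated between days at −0.16 to 0.04. With the replicate block, 235 regions were higher early and 4 late, and 44 loci were higher early and 47 late.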
